A study of Homo sapiens with 9 samples.

Results

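The genes followed here carry glucose through glycolysis or answer to low oxygen. They are 35 genes taken by name from a fixed list, out of 31589 genes in the 3 deposited count tables. The list holds 15 glycolytic enzymes, 2 lactate dehydrogenases, 4 transporters of glucose or lactate, 4 kinases that set glycolytic flux or pyruvate entry (the PDK and PFKFB families) and 10 hypoxia response genes. The RNA came from human spinal cord organoids (SCOs), grown from the WTC induced pluripotent stem cell line, whose labelled genotype is WT. The study describes its SCOs as made from 3 clones of that line carrying a SOX10 reporter, with several organoids pooled for each sample, and the labels do not tie a library to a clone. Same-numbered libraries of the 3 groups share a prefix in the labels (C4, C5 or C6), which is not explained there. Sequencing covered 3 libraries each of vehicle SCOs (titled FGF), SCOs with VPA and SCOs with VPA+Rapamycin, all after 96 h of treatment per the labels. The study describes vehicle as FGF alone and VPA exposure as FGF together with VPA, while the titles of treated libraries do not name FGF. No library had Rapamycin without VPA.

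Glycolysis splits glucose into pyruvate, and lactate dehydrogenase turns pyruvate into lactate when it does not enter mitochondria. Most steps have several isoenzymes from separate genes, and tissues differ in which they use: neurons are known for ENO2 and SLC2A3 (GLUT3), proliferating progenitors for LDHA and HK2. At low oxygen the factor HIF1A escapes hydroxylation by the EGLN prolyl hydroxylases and raises many glycolytic genes together with VEGFA, ADM, BNIP3 and others. VPA (valproic acid) is an anti-seizure drug that inhibits histone deacetylases, and Rapamycin inhibits mTORC1, a kinase complex known to promote HIF1A translation and glycolytic gene expression.

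The 9 libraries held 15290436 to 17417478 counts, and the 35 genes took 0.918% to 1.39% of them. All 35 passed the filter on low counts and were tested in each comparison. Replicates differed by more than sampling noise in every group (chi-square per gene 4.75 to 39.1). Markers of neural progenitors summed to 30283 to 40214 normalized counts and neuronal markers to 13691 to 26614, while the 5 endothelial markers together reached only 149 to 234. A normalized count here is a gene's count scaled by edgeR's TMM method to the mean library of the 9. Nothing in the labels says that replicates came from separate cultures. A figure legend of the study describes each column of its RNA-seq heatmap as a single clone. The p-values measure the spread between these libraries, which may be between clones of the same line and partly technical. In bulk RNA, fewer cells of a type and less RNA per cell cannot be told apart.

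VPA moved the genes in both directions. Against vehicle, 5 of the 35 rose (PFKP, ENO1, LDHA, SLC16A1 and EGLN3) and 8 fell (HK2, PFKM, ENO2, SLC2A1, SLC2A3, VEGFA, EGLN1 and ADM), at an edgeR adjusted p of at most 0.05. Of all 17360 genes tested 16.4% rose and 15.7% fell, so the share of the 35 that rose was close to the background and the share that fell somewhat above it. The median log2 fold change was -0.01 over the 35 genes and -0.00298 over all genes. When Rapamycin was added to VPA, none of the 35 rose against VPA alone and 4 fell (PFKP, PGAM1, LDHA and SLC16A1), where 3.01% of 17317 genes rose and 3.73% fell. The estimates of 27 of the 35 lay below 0, with a median of -0.20, against 8544 of 17317 genes and a median of 0.00391. At an unadjusted p under 0.05, 17 of the 35 and 3714 of the 17317 genes were past the threshold in this comparison, in either direction. Against vehicle, the VPA+Rapamycin libraries had none of the 35 higher and 6 lower (PFKM, ENO2, SLC2A1, SLC2A3, EGLN1 and ADM), where 9.81% of 17383 genes were higher and 9.22% lower. In all, 14 of the 35 were called in at least 1 comparison and 21 in none. Of the 35, 6 were higher in all VPA than in all vehicle libraries and 8 lower, where 24.9% and 22.6% of all genes were. For VPA+Rapamycin against VPA these were 0 and 6, where 12.3% and 13.2% of all genes were. For VPA+Rapamycin against vehicle they were 0 and 8, where 20.3% and 18.1% were. Separation of libraries is given below as a description only. The 3 comparisons share libraries in pairs, so their counts are not independent.

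**Figure D1:**
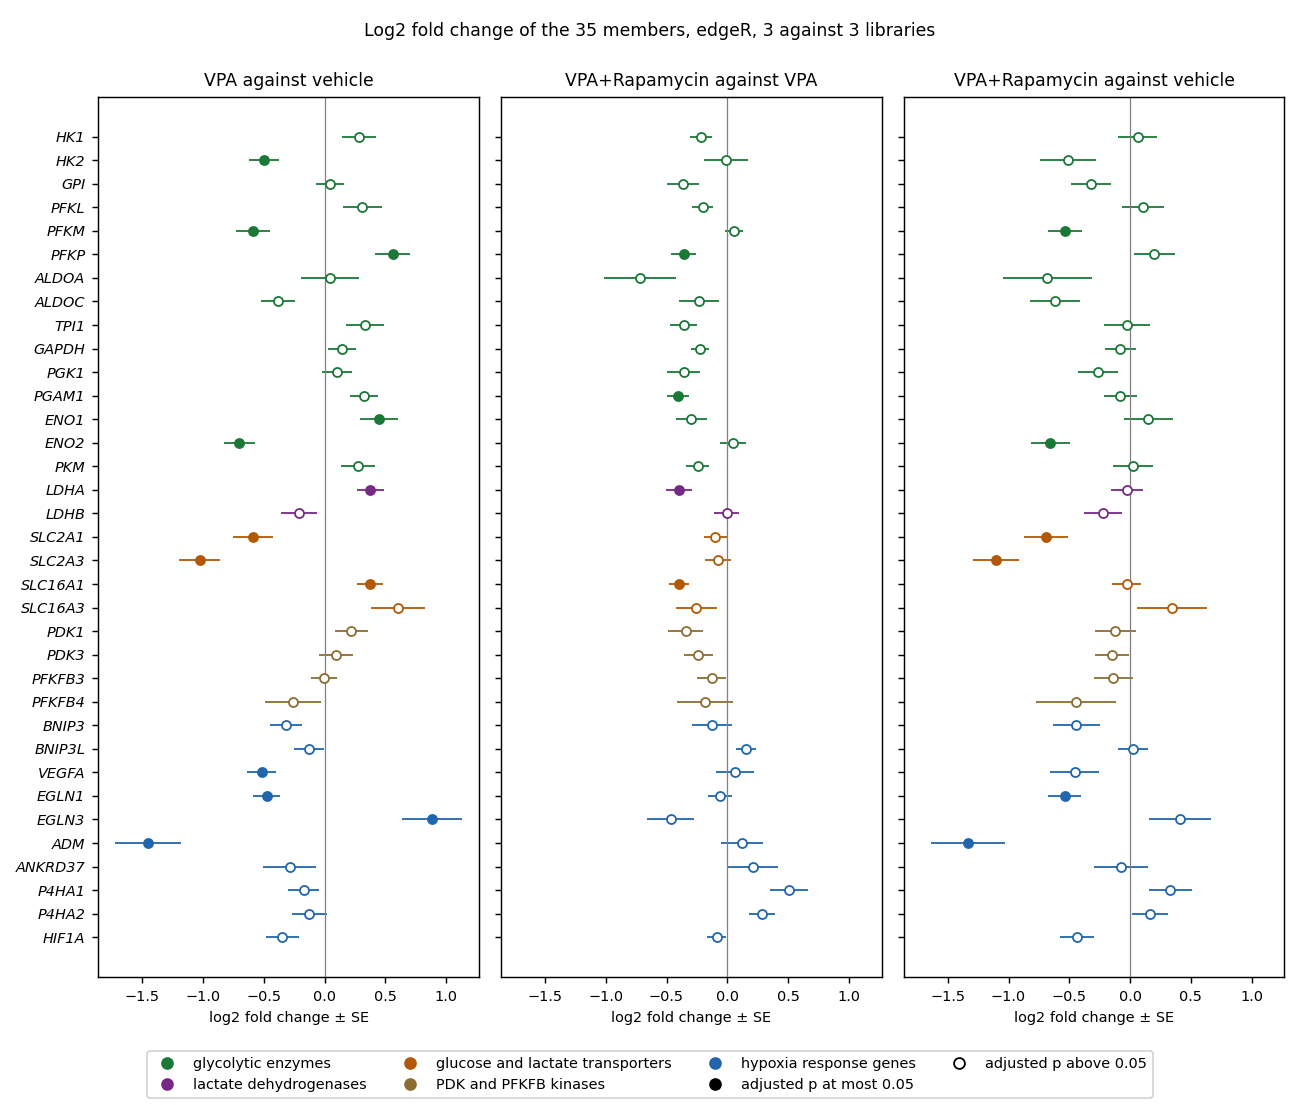
Log2 fold change (x axis, ± SE from edgeR, 3 against 3 libraries) of each of the 35 genes in the 3 comparisons, coloured by role, with filled points for an adjusted p of at most 0.05. VPA against vehicle has filled points on both sides of 0, from ADM at -1.45 to EGLN3 at 0.88, whereas filled points in the other comparisons all lie below 0.

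The count of 4 that fell with Rapamycin depended on single libraries. It was 16 without VPA+Rapamycin replicate 2, 2 without VPA+Rapamycin replicate 1, and 1 without VPA+Rapamycin replicate 3, VPA replicate 1 or VPA replicate 2. It was 0 when all 9 libraries entered a single fit and 14 without a filter on low counts. The median log2 fold change in that comparison, -0.20, became -0.0919 without VPA+Rapamycin replicate 1, -0.12 without VPA replicate 1 and -0.33 without VPA+Rapamycin replicate 2. None rose in that comparison with DESeq2 either, and 1 rose without VPA replicate 1 or VPA+Rapamycin replicate 1. The count of 5 that rose with VPA was 9 without that filter, 11 without vehicle replicate 1, 0 without vehicle replicate 2 or VPA replicate 1, and 2 without VPA replicate 2. The count of 8 that fell with VPA was 5 without VPA replicate 2 or replicate 3, and the count of 6 lower in VPA+Rapamycin than in vehicle was 11 without that filter, 2 without vehicle replicate 2 and 1 without VPA+Rapamycin replicate 1 or 3. None was higher there with DESeq2, 1 was without VPA+Rapamycin replicate 1, and 11 of the 35 had an unadjusted p under 0.05, as did 5872 of all 17383 genes. With a replicate block the counts of 4, 5 and 6 were each higher, as given at the end.

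The libraries of a group differed in the same direction for most of the 35 genes. Within the vehicle group, replicate 1 was the highest of the 3 libraries for 26 of the 35 genes and replicate 3 the lowest for 25. Over all 17360 genes, vehicle replicate 1 was the highest for 39.2% and replicate 3 the lowest for 40.2%. VPA replicate 1 was the highest of its group for 30 of the 35 genes (33.5% of all genes). VPA+Rapamycin replicate 2 was the highest of its group for 30 (34.5% of all genes) and replicate 1 the lowest for 26 (32.6% of all genes). Counting only the 15 enzymes and the 2 lactate dehydrogenases, vehicle replicate 1 was the highest for 16 of 17 and VPA+Rapamycin replicate 2 for 16 of 17. The median deviation of the 35 genes from their group mean, on the log2 scale, ran from -0.19 to 0.17 in the vehicle libraries, -0.09 to 0.13 with VPA and -0.27 to 0.28 with VPA+Rapamycin. For calls of the 35 genes, the libraries whose removal changed them are named below. In the wider list this is given for the named calls except that of ARNT. Calls of cell type markers were not recomputed without single libraries.

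**Figure D2:**
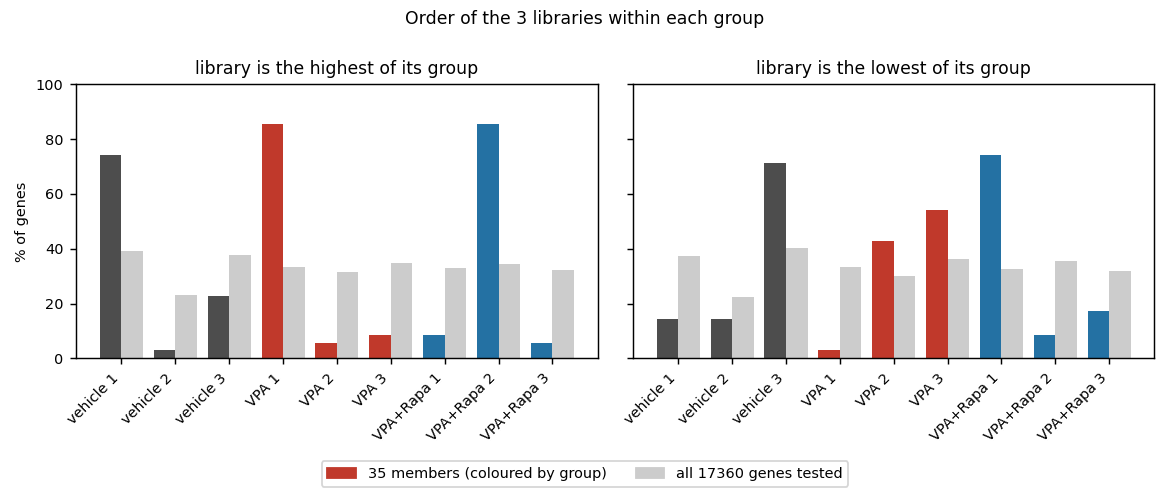
Percent of genes (y axis) for which each library (x axis) was the highest (left panel) or the lowest (right panel) of the 3 in its group, for the 35 genes (coloured bars) and all 17360 genes tested (grey bars). The coloured bars of VPA replicate 1 and VPA+Rapamycin replicate 2 reach 85.7% for highest, against 33.5% and 34.5% over all genes.

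The promoters of these genes were read because HIF1A binds the 5 letters ACGTG or GCGTG. Of the 35 genes, 31 had an entry in the RefSeq promoter table (GRCh38.p14, 250 bases before to 50 after the gene start). SLC2A3, SLC16A1, VEGFA and BNIP3L had none. ACGTG occurred on either strand in 13 of 31 (41.9%), against 21.4% of all 35116 promoters and 26.1% of the 11682 promoters of genes tested here. GCGTG occurred in 15 (48.4%), against 36.5% and 50.4%. Either of them occurred in 22 of 31 (71%), against 48.4% and 62.6%. CACGTG, which contains ACGTG on both strands, occurred in 5 (16.1%), against 7.26% and 9.9%. A match is a run of letters, not a measured binding site. The stretches that follow are the matches of the called hypoxia response genes and transporters with the smallest adjusted p that had an entry, and of LDHA, chosen after its 5 matches to ACGTG, the most of any of these genes, were seen (it also has 1 to GCGTG). Each runs 5′ to 3′ along the gene's strand, with the match in capitals (CACGT and CACGC are the matches read on the other strand, and CACGTG holds a match on each strand). The 5 matches of LDHA count each CACGTG on both strands. EGLN3 held no match in its window. By GENCODE 29 each stretch lies in an exon of a transcript of its gene, LDHA site 1 in part.

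ADM (chr11:10304960-10304988, plus strand): gagcaggagcgcGCGTGgctgaggaaaga
SLC2A1 (chr1:42958827-42958855, minus strand): tagcaacagcgaGCGTGccggtcgctagt
EGLN1 (chr1:231422284-231422312, minus strand): gggccgtggtgtACGTGcagagcgcgcag
LDHA site 1 (chr11:18394366-18394395, plus strand): agactcccagcgCACGTGgagcagtctgcc
LDHA site 2 (chr11:18394464-18394493, plus strand): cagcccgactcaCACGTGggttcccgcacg
LDHA site 3 (chr11:18394478-18394506, plus strand): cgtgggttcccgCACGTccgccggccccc
LDHA site 4 (chr11:18394589-18394612, plus strand): ggatctcattgcCACGCgcccccg

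Of the genes shown here, LDHA rose with VPA while ADM, SLC2A1 and EGLN1 fell, and EGLN3, without a match in its window, rose. These genes were picked by their calls or matches. Any link between the letters and the direction of change was not tested.

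Among the glycolytic enzymes, 2 of 15 rose and 3 fell with VPA, where 16.4% and 15.7% of all genes did. Both phosphofructokinase and enolase had 1 isoenzyme that rose and 1 that fell. With Rapamycin added, 2 of 15 fell, where 3.73% of all genes did. The estimates of 13 of the 15 lay below 0, as did those of 8544 of all 17317 genes. Of the 10 hypoxia response genes, 6 had estimates above 0, as did 8773 of all genes. The first step, phosphorylation of glucose, is carried out by hexokinases HK1 and HK2. HK2 (chr2:74833981-74893359) stood at 4295, 3805 and 3502 normalized counts in the vehicle libraries, 3201, 2683 and 2377 with VPA and 1612, 3688 and 2882 with VPA+Rapamycin. All 3 VPA libraries lay below all 3 vehicle libraries, as for 22.6% of all genes, and the VPA+Rapamycin libraries overlapped both groups. HK2 fell with VPA (log2 fold change -0.50 ± 0.13 (SE), edgeR adjusted p = 0.011). That call was lost with all 9 libraries in a single fit (-0.50), without VPA replicate 2 (-0.48) and without VPA replicate 3 (-0.40), and over the 13 alternatives the adjusted p ran from 0.000649 to 0.0803. Against VPA, the VPA+Rapamycin estimate was -0.01 with a 95% interval of -0.39 to 0.37, and against vehicle HK2 did not pass the test (log2 fold change -0.51 ± 0.23 (SE), edgeR adjusted p = 0.145). HK1 was not called in any comparison, at 2710 ± 572 (SD, n = 3) normalized counts in vehicle, 3321 ± 214 with VPA and 2851 ± 454 with VPA+Rapamycin.

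Phosphofructokinase, which commits glucose to glycolysis, has 3 genes. PFKM, the muscle form, is on chromosome 12 (chr12:48105139-48146404) and stood at 3098, 2385 and 2061 normalized counts in the vehicle libraries, 1612, 1749 and 1697 with VPA and 1733, 1830 and 1682 with VPA+Rapamycin. Every vehicle library lay above every VPA and VPA+Rapamycin library. PFKM fell with VPA (log2 fold change -0.59 ± 0.14 (SE), edgeR adjusted p = 0.00814) and was also lower with VPA+Rapamycin than in vehicle (log2 fold change -0.53 ± 0.14 (SE), edgeR adjusted p = 0.0246). The VPA call held in all 13 alternatives, with adjusted p between 6.65e-05 and 0.0471. Against vehicle, the VPA+Rapamycin call was lost without vehicle replicate 2 (-0.57) or without VPA+Rapamycin replicate 1 (-0.52), 2 (-0.56) or 3 (-0.50), with adjusted p from 0.00138 to 0.0995 over the 13 alternatives. Between VPA+Rapamycin and VPA the estimate was 0.06 with a 95% interval of -0.10 to 0.21. Part of PFKM (8.58% of its exon bases) is shared with SENP1 on the opposite strand, and whether the counting used strand is not given in the sources used here.

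PFKP, the platelet form, moved the other way. It (chr10:3066333-3137712) stood at 1938, 1448 and 1281 normalized counts in the vehicle libraries, 2542, 2142 and 2245 with VPA and 1537, 2161 and 1690 with VPA+Rapamycin. The VPA libraries lay above all vehicle libraries, and VPA+Rapamycin libraries overlapped both groups. PFKP rose with VPA (log2 fold change 0.56 ± 0.15 (SE), edgeR adjusted p = 0.0134) and fell when Rapamycin was added (log2 fold change -0.36 ± 0.10 (SE), edgeR adjusted p = 0.0438). The rise was lost without vehicle replicate 2 (0.51) and without VPA replicate 1 (0.49), and over the 13 alternatives the adjusted p ran from 0.000135 to 0.0667. The fall was lost with all 9 libraries in a single fit (-0.36), without VPA replicate 1 (-0.29), without VPA replicate 2 (-0.41), without VPA replicate 3 (-0.38), without VPA+Rapamycin replicate 1 (-0.26) and without VPA+Rapamycin replicate 3 (-0.32), and over the 13 alternatives the adjusted p ran from 0.00038 to 0.315. Against vehicle, VPA+Rapamycin gave 0.20 with a 95% interval of -0.17 to 0.57. PFKL, the liver form, was called in no comparison (0.31, adjusted p = 0.157 with VPA).

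Enolase makes phosphoenolpyruvate, with ENO1 as the widely expressed form and ENO2 as the neuronal form. ENO1 (chr1:8861000-8879250) stood at 33087, 28026 and 19845 normalized counts in the vehicle libraries, 41814, 34372 and 35012 with VPA and 23412, 38920 and 27982 with VPA+Rapamycin. All VPA libraries were above all vehicle libraries, the lowest of them close to the highest vehicle library. ENO1 rose with VPA (log2 fold change 0.45 ± 0.16 (SE), edgeR adjusted p = 0.0482), just within the threshold. ENO1 lost this call with all 9 libraries in a single fit (0.45), without vehicle replicate 2 (0.47), without VPA replicate 1 (0.36), without VPA replicate 2 (0.50) and without VPA replicate 3 (0.49), and over the 13 alternatives the adjusted p ran from 0.000439 to 0.176. ENO2 (chr12:6913745-6923698) stood at 6644, 5169 and 4804 normalized counts in the vehicle libraries, 3747, 3135 and 3412 with VPA and 2853, 4243 and 3517 with VPA+Rapamycin. Each vehicle library was above every treated library. ENO2 fell with VPA (log2 fold change -0.70 ± 0.13 (SE), edgeR adjusted p = 0.00216) and was lower with VPA+Rapamycin than in vehicle (log2 fold change -0.66 ± 0.16 (SE), edgeR adjusted p = 0.0176). The call held in all 13 alternatives, with adjusted p between 5.39e-07 and 0.0203. The VPA+Rapamycin call against vehicle was lost without VPA+Rapamycin replicate 1 (-0.52) and without VPA+Rapamycin replicate 3 (-0.65), and over the 13 alternatives the adjusted p ran from 0.000107 to 0.0858. Between VPA+Rapamycin and VPA, ENO2 gave 0.05 with a 95% interval of -0.18 to 0.27, and ENO1 gave -0.30 with a 95% interval of -0.57 to -0.03 (adjusted p = 0.181).

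Markers of several cell types moved with these groups. The 6 neural progenitor markers summed to 30283 to 34708 normalized counts in vehicle, 36759 to 40214 with VPA and 31576 to 34479 with VPA+Rapamycin. With VPA 1 of the 6 rose, HES5 (0.95, adjusted p = 0.000114 by edgeR), and 0 fell. When Rapamycin was added 2 of the 6 fell (3.73% of all genes). Of 5 neural crest and Schwann precursor markers tested with VPA, 3 fell and 1 rose, with SOX10 at -5.15 (adjusted p = 2.52e-06). The 7 neuronal markers (TUBB3, STMN2, DCX, ELAVL3, ELAVL4, MAPT and SNAP25) summed to 16168 to 26614 normalized counts in vehicle, 13691 to 15091 with VPA and 14486 to 15377 with VPA+Rapamycin. With VPA 4 of the 7 fell and 1, MAPT, rose. STMN2, at a mean of 9190 of the mean sum of 21240 in vehicle, was not called (-0.43, adjusted p = 0.0801 by edgeR). In VPA+Rapamycin against VPA, 2 of the 7 rose, where 3.01% of all genes did. Over all genes, 15.7% fell and 16.4% rose with VPA. All 7 neuronal markers were detected in every library. The 8 mesenchymal markers summed to 2450 to 5164 in vehicle, 9511 to 12095 with VPA and 4228 to 6291 with VPA+Rapamycin. Of the 7 tested in the VPA+Rapamycin against VPA comparison, 6 fell, where 3.73% of all genes did. With VPA 2 of 7 rose, COL1A1 (1.11, adjusted p = 0.0124 by edgeR) and COL1A2 (2.12, adjusted p = 0.001), which made up most of the sum, whereas the estimates of COL3A1 (-0.49) and PRRX1 (-0.43) lay below 0 without passing the test. The 5 markers of cycling cells summed to 26531 to 31804, 31110 to 33040 and 25945 to 29849 in the same order. They were lower in all VPA+Rapamycin than in all VPA libraries in 5 of 5 (13.2% of all genes), with 1 called lower (3.73% of all genes). Within the vehicle group, replicate 3 had the highest neuronal sum and the lowest ENO2 and SLC2A3. That library was also the lowest of its group for 25 of the 35 genes. The part of these cell types in the fall of ENO2 and SLC2A3 with VPA, and of PFKP, PGAM1, LDHA and SLC16A1 with Rapamycin, was not tested.

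PGAM1, a phosphoglycerate mutase, was the remaining enzyme called. It (chr10:97426160-97433441) stood at 8356, 7816 and 6242 normalized counts in the vehicle libraries, 10073, 9408 and 8814 with VPA and 6235, 8245 and 6857 with VPA+Rapamycin. All 3 VPA libraries lay above the other 6, and the VPA+Rapamycin libraries lay within or near the vehicle range. PGAM1 fell with Rapamycin (log2 fold change -0.40 ± 0.09 (SE), edgeR adjusted p = 0.0111) and just missed the threshold with VPA (log2 fold change 0.33 ± 0.12 (SE), edgeR adjusted p = 0.0506). PGAM1 lost this call with all 9 libraries in a single fit (-0.41), without VPA replicate 1 (-0.36), without VPA replicate 2 (-0.41) and without VPA+Rapamycin replicate 3 (-0.38), and over the 13 alternatives the adjusted p ran from 4.39e-06 to 0.151. Against vehicle, VPA+Rapamycin gave -0.08 with a 95% interval of -0.38 to 0.22.

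GAPDH, the enzyme that also served the study as the reference for its quantitative PCR, was called in none of the 3 comparisons. It (chr12:6533927-6538374) stood at 27147, 24768 and 19439 normalized counts in the vehicle libraries, 26804, 26035 and 26558 with VPA and 22074, 24786 and 21073 with VPA+Rapamycin. The VPA libraries were tight and lay above the 3 VPA+Rapamycin libraries, whereas vehicle replicates spread across the whole range. With VPA the estimate was 0.14 with a 95% interval of -0.11 to 0.40 (edgeR adjusted p = 0.367). With Rapamycin added it was -0.22 with a 95% interval of -0.38 to -0.07 (edgeR adjusted p = 0.0816, between 0.00715 and 0.402 over the 13 alternatives). That comparison passed the threshold with DESeq2 (-0.23), without a filter on low counts (-0.23) and without VPA+Rapamycin replicate 2 (-0.29). Against vehicle, VPA+Rapamycin gave -0.08 with a 95% interval of -0.36 to 0.20. GAPDH had the highest level per kb of gene length of the 35, with 7979 ± 1324 (SD, n = 3) normalized counts per kb in vehicle, followed by ENO1 at 5115 ± 1266 and SLC2A1 at 4118 ± 1118, whose SDs overlap.

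PKM, which makes pyruvate, was not called either. It (chr15:72199029-72231822) stood at 20618, 16775 and 13052 normalized counts in the vehicle libraries, 21639, 19555 and 20106 with VPA and 15037, 20590 and 16071 with VPA+Rapamycin. The groups overlapped in each comparison. Estimates were 0.27 with a 95% interval of -0.03 to 0.58 with VPA, -0.24 with a 95% interval of -0.44 to -0.04 when Rapamycin was added and 0.03 with a 95% interval of -0.34 to 0.39 for VPA+Rapamycin against vehicle. The first passed the threshold without vehicle replicate 1 (0.44), and the second passed it without VPA+Rapamycin replicate 2 (-0.39) or without a filter on low counts (-0.25). The other enzymes without a call were GPI, TPI1, PGK1, ALDOA and ALDOC. With VPA, their estimates ran from -0.38 (ALDOC, adjusted p = 0.0556, all VPA libraries below all vehicle libraries) to 0.33 (TPI1, adjusted p = 0.119). With Rapamycin added they were all below 0, from -0.72 (ALDOA, adjusted p = 0.155) to -0.23 (ALDOC, adjusted p = 0.46), with TPI1 at -0.36 and an edgeR adjusted p of 0.0506.

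ALDOA, the main aldolase of most cells, had a low count (43 to 130 normalized counts) that the annotation bears on. Of its exon bases, 53.5% are shared with other gene models in GENCODE 29, 42.3% with a same-strand model (AC093512.2). The same holds for LDHB, with 33.4% shared with same-strand AC010197.2, and for ANKRD37, with 35.2% shared with UFSP2 on the opposite strand. By default featureCounts leaves out reads that fall on more than 1 gene, and the setting used is not given in the sources used here, so the levels of these 3 genes are uncertain. Pseudogene rows held at most 1.59% of the count of their parent gene (BNIP3), and 0.638% for GAPDH over 16 pseudogenes.

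Lactate dehydrogenase A favours lactate formation and B is the form of oxidative tissue. LDHA (chr11:18394388-18408425) stood at 15086, 13586 and 12332 normalized counts in the vehicle libraries, 20346, 17135 and 16163 with VPA and 11079, 15652 and 13845 with VPA+Rapamycin. The VPA libraries were above all vehicle libraries and above all VPA+Rapamycin libraries. LDHA rose with VPA (log2 fold change 0.38 ± 0.11 (SE), edgeR adjusted p = 0.0244) and fell when Rapamycin was added (log2 fold change -0.40 ± 0.11 (SE), edgeR adjusted p = 0.0282). Its rise was lost without vehicle replicate 2 (0.37), without VPA replicate 1 (0.28) and without VPA replicate 2 (0.41), and over the 13 alternatives the adjusted p ran from 0.00335 to 0.126. The fall with Rapamycin was lost with DESeq2 (-0.40), with all 9 libraries in a single fit (-0.40), without VPA replicate 1 (-0.30), without VPA replicate 2 (-0.43), without VPA+Rapamycin replicate 1 (-0.28) and without VPA+Rapamycin replicate 3 (-0.42), and over the 13 alternatives the adjusted p ran from 3.08e-06 to 0.177. VPA+Rapamycin against vehicle gave -0.02 with a 95% interval of -0.32 to 0.27. LDHB stood at 738, 869 and 1072 normalized counts in the vehicle libraries, 840, 785 and 704 with VPA and 861, 673 and 782 with VPA+Rapamycin. Its groups overlapped throughout, with estimates of -0.21, adjusted p = 0.294 with VPA and -0.00463, adjusted p = 0.987 when Rapamycin was added, both by edgeR.

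**Figure D3:**
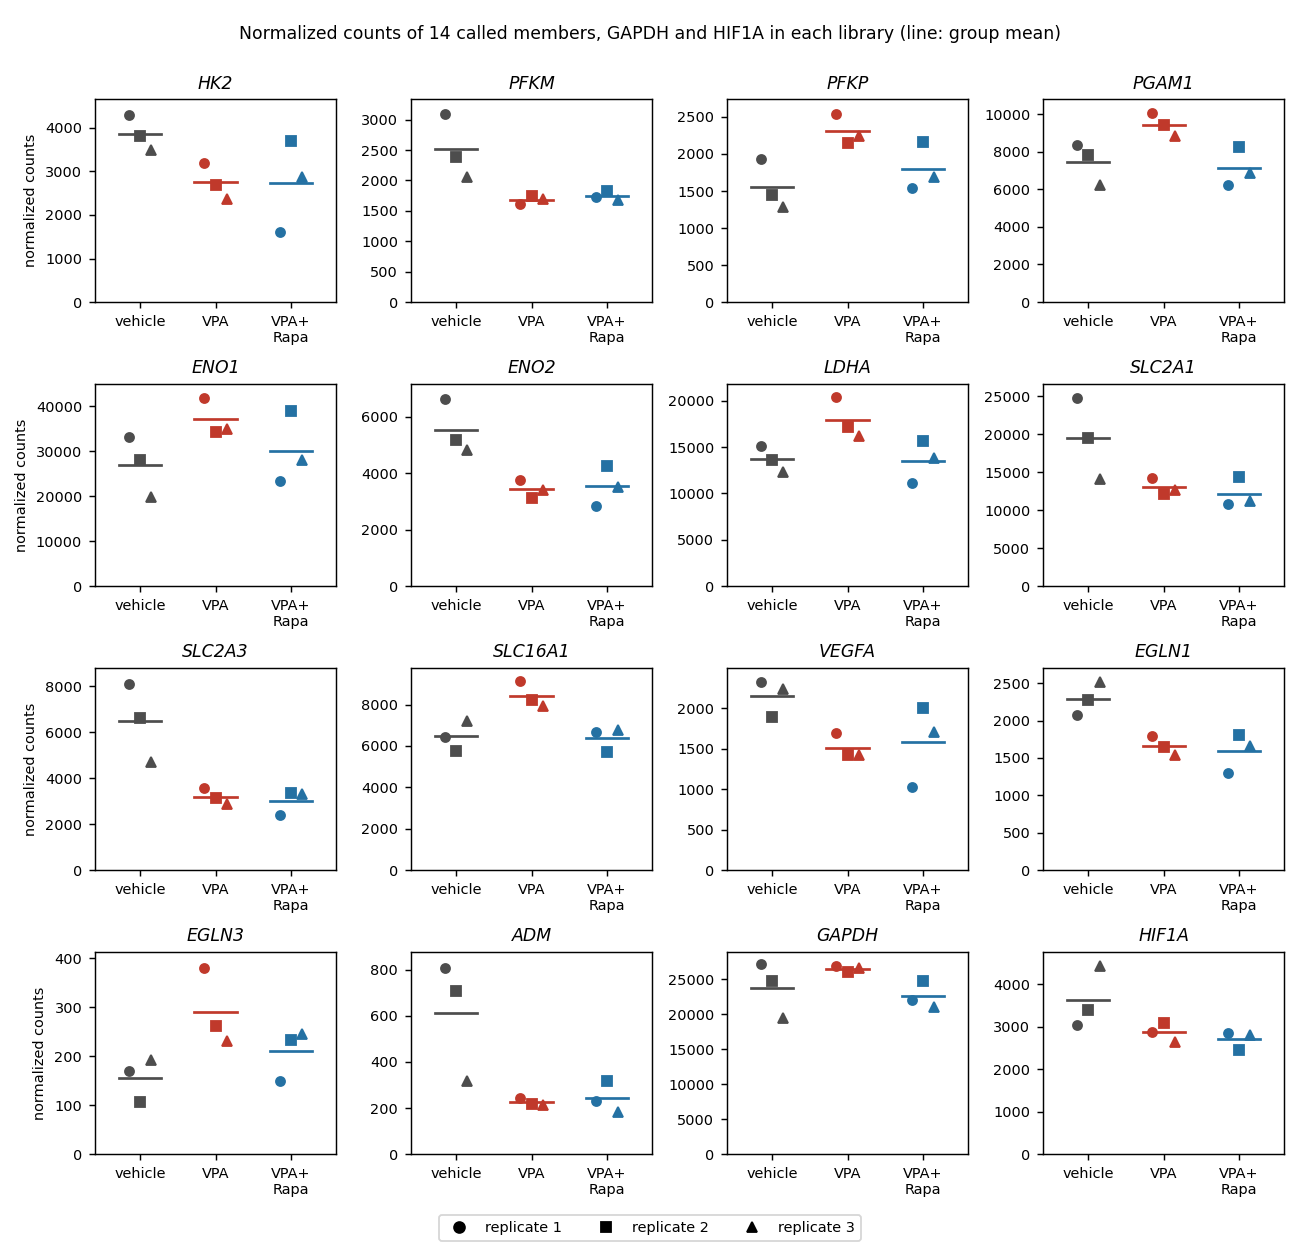
Normalized counts (y axis, from 0) of the 14 called genes, GAPDH and HIF1A in each library, by group (x axis), with a marker shape for each replicate number and a line at the group mean. SLC2A3 and ADM lie lower in all 6 treated libraries than in any vehicle library, while PGAM1, LDHA and SLC16A1 are high in the 3 VPA libraries alone.

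Of the 4 transporters, the glucose carriers SLC2A1 (GLUT1) and SLC2A3 (GLUT3) fell with VPA, the lactate carrier SLC16A1 (MCT1) rose, and SLC16A3 was not called. Among the glucose carriers of the wider list, SLC2A4 (GLUT4) rose with VPA (1.22, adjusted p = 0.0176 by edgeR, from 76, 30 and 34 to 100, 124 and 107 normalized counts), a call lost without vehicle replicate 2 or VPA replicate 2 or 3, and SLC2A12 was not called (0.27, adjusted p = 0.294). SLC2A3 (chr12:7919230-7936275) stood at 8101, 6606 and 4688 normalized counts in the vehicle libraries, 3576, 3122 and 2888 with VPA and 2411, 3370 and 3296 with VPA+Rapamycin. No treated library reached the lowest vehicle library. SLC2A3 fell with VPA (log2 fold change -1.03 ± 0.17 (SE), edgeR adjusted p = 0.00116) and was lower with VPA+Rapamycin than in vehicle (log2 fold change -1.10 ± 0.19 (SE), edgeR adjusted p = 0.00359). The call held in all 13 alternatives, with adjusted p between 1.52e-12 and 0.0118. That against vehicle with VPA+Rapamycin held in all 13 alternatives, with adjusted p between 1.74e-09 and 0.0255. Adding Rapamycin gave -0.08 with a 95% interval of -0.30 to 0.15.

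SLC2A1 (chr1:42925375-42959176) stood at 24696, 19532 and 14130 normalized counts in the vehicle libraries, 14256, 12181 and 12622 with VPA and 10805, 14321 and 11263 with VPA+Rapamycin. Vehicle replicate 3 lay among the treated libraries, so the groups overlapped, while the other vehicle libraries lay above them all. SLC2A1 fell with VPA (log2 fold change -0.59 ± 0.16 (SE), edgeR adjusted p = 0.018) and was lower with VPA+Rapamycin than in vehicle (log2 fold change -0.69 ± 0.18 (SE), edgeR adjusted p = 0.0234). The VPA call was lost without vehicle replicate 2 (-0.59), without VPA replicate 2 (-0.54) and without VPA replicate 3 (-0.56), and over the 13 alternatives the adjusted p ran from 1.2e-05 to 0.0834. The VPA+Rapamycin call was lost without vehicle replicate 2 (-0.69), without VPA+Rapamycin replicate 1 (-0.61) and without VPA+Rapamycin replicate 3 (-0.63), and over the 13 alternatives the adjusted p ran from 4.81e-05 to 0.111. Adding Rapamycin gave -0.10 with a 95% interval of -0.30 to 0.10.

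SLC16A1 (chr1:112911847-112957013) stood at 6450, 5735 and 7195 normalized counts in the vehicle libraries, 9147, 8233 and 7911 with VPA and 6665, 5728 and 6762 with VPA+Rapamycin. The VPA libraries were above the other 6. SLC16A1 rose with VPA (log2 fold change 0.37 ± 0.11 (SE), edgeR adjusted p = 0.0235) and fell when Rapamycin was added (log2 fold change -0.40 ± 0.08 (SE), edgeR adjusted p = 0.00578). The rise with VPA was lost without vehicle replicate 2 (0.29), without VPA replicate 1 (0.32) and without VPA replicate 2 (0.39), and over the 13 alternatives the adjusted p ran from 0.000908 to 0.112. The fall with Rapamycin was lost with all 9 libraries in a single fit (-0.40), and over the 13 alternatives the adjusted p ran from 7.4e-06 to 0.107. VPA+Rapamycin against vehicle gave -0.03 with a 95% interval of -0.29 to 0.23. SLC16A3 (MCT4), the lactate exporter of glycolytic cells, had an estimate of 0.60, adjusted p = 0.0576 with VPA by edgeR, with overlapping groups.

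None of the 4 kinases of the list was called. PDK1 and PDK3 keep pyruvate out of mitochondria by inactivating pyruvate dehydrogenase, and PFKFB3 and PFKFB4 set the level of the activator of phosphofructokinase. Their estimates ran from -0.26 (PFKFB4) to 0.22 (PDK1) with VPA, with edgeR adjusted p of 0.223 to 0.969, and from -0.34 (PDK1) to -0.13 (PFKFB3) when Rapamycin was added, with adjusted p of 0.17 to 0.7. Of the 4, PFKFB4 spread most between libraries, at 2369, 1776 and 1149 normalized counts in vehicle and 716, 2021 and 1170 with VPA+Rapamycin. Of the other members of these families in the wider list, PFKFB1 was not called with VPA (0.34, adjusted p = 0.601 by edgeR). The rest were called by edgeR, where 16.4% of all genes rose and 15.7% fell. PDK2 (0.51, adjusted p = 0.0239) and PFKFB2 (0.65, adjusted p = 0.0361) rose, and PDK4 fell (-1.69, adjusted p = 0.0337). The PDK2 call was lost without VPA replicate 1 or 2, that of PDK4 also without vehicle replicate 2, and that of PFKFB2 without vehicle replicate 2 or 3 or any 1 VPA library.

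Of the 10 hypoxia response genes, 3 fell and 1 rose with VPA, and the estimates of 9 lay below 0. Over all 17360 genes, 15.7% fell and 16.4% rose, and the estimates of 8724 lay below 0. ADM, the vasodilator peptide adrenomedullin, (chr11:10304680-10307397) had the largest fold change of the 35. Its promoter holds the GCGTG printed with the other stretches. It stood at 805, 708 and 319 normalized counts in the vehicle libraries, 243, 218 and 214 with VPA and 233, 317 and 181 with VPA+Rapamycin. Vehicle replicate 3 was well below the other vehicle libraries, and still above every VPA library and just above the highest VPA+Rapamycin library. ADM fell with VPA (log2 fold change -1.45 ± 0.27 (SE), edgeR adjusted p = 0.0024) and was lower with VPA+Rapamycin than in vehicle (log2 fold change -1.33 ± 0.31 (SE), edgeR adjusted p = 0.0138). The call held in all 13 alternatives, with adjusted p between 6.05e-12 and 0.0187. The VPA+Rapamycin call was lost without vehicle replicate 2 (-1.21), without VPA+Rapamycin replicate 1 (-1.29) and without VPA+Rapamycin replicate 3 (-1.15), and over the 13 alternatives the adjusted p ran from 2.16e-07 to 0.0654. Adding Rapamycin gave 0.12 with a 95% interval of -0.24 to 0.48.

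VEGFA, the main angiogenic growth factor, (chr6:43770184-43786487) stood at 2316, 1893 and 2231 normalized counts in the vehicle libraries, 1698, 1426 and 1415 with VPA and 1025, 2005 and 1703 with VPA+Rapamycin. The VPA libraries lay below all vehicle libraries, and VPA+Rapamycin replicate 2 lay within the vehicle range. VEGFA fell with VPA (log2 fold change -0.52 ± 0.12 (SE), edgeR adjusted p = 0.00733). The call was lost without VPA replicate 2 (-0.47), and over the 13 alternatives the adjusted p ran from 0.000782 to 0.0516. Against vehicle the VPA+Rapamycin libraries did not pass the test (log2 fold change -0.45 ± 0.20 (SE), edgeR adjusted p = 0.141), and adding Rapamycin gave 0.06 with a 95% interval of -0.26 to 0.39.

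The oxygen sensors EGLN1 and EGLN3 moved in opposite directions with VPA. EGLN2, of the wider list, just missed the threshold on the side of EGLN1 (log2 fold change -0.58 ± 0.20 (SE), edgeR adjusted p = 0.0501). All VPA libraries of EGLN2 lay below all vehicle libraries. EGLN1 (PHD2), the main prolyl hydroxylase of HIF1A in most cells, (chr1:231363751-231425044) stood at 2075, 2280 and 2517 normalized counts in the vehicle libraries, 1790, 1651 and 1542 with VPA and 1305, 1804 and 1653 with VPA+Rapamycin. All vehicle libraries were above all treated libraries. EGLN1 fell with VPA (log2 fold change -0.48 ± 0.11 (SE), edgeR adjusted p = 0.00804) and was lower with VPA+Rapamycin than in vehicle (log2 fold change -0.54 ± 0.14 (SE), edgeR adjusted p = 0.0206). The fall with VPA was lost without VPA replicate 3 (-0.42), and over the 13 alternatives the adjusted p ran from 0.00117 to 0.0536. The VPA+Rapamycin call was lost without vehicle replicate 2 (-0.55), without VPA+Rapamycin replicate 1 (-0.41) and without VPA+Rapamycin replicate 3 (-0.56), and over the 13 alternatives the adjusted p ran from 0.00186 to 0.1. EGLN3 (PHD3) (chr14:33924231-34462774) had the lowest level of the 35 per kb in vehicle and stood at 170, 107 and 192 normalized counts in the vehicle libraries, 380, 262 and 230 with VPA and 150, 234 and 246 with VPA+Rapamycin. The VPA libraries were above all vehicle libraries, and VPA+Rapamycin libraries overlapped both. EGLN3 rose with VPA (log2 fold change 0.88 ± 0.25 (SE), edgeR adjusted p = 0.0189). The call was lost without vehicle replicate 2 (0.67) and without VPA replicate 1 (0.65), and over the 13 alternatives the adjusted p ran from 0.000226 to 0.0975. Adding Rapamycin gave -0.47 with a 95% interval of -0.87 to -0.07 (adjusted p = 0.158).

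HIF1A itself (chr14:61695513-61748259), whose protein rather than RNA is the usual point of control, stood at 3051, 3388 and 4441 normalized counts in the vehicle libraries, 2886, 3095 and 2648 with VPA and 2844, 2459 and 2798 with VPA+Rapamycin. Vehicle replicate 3 was the highest of the 9 libraries. The VPA libraries overlapped vehicle, and all VPA+Rapamycin libraries were below all vehicle libraries. Neither difference from vehicle passed the test (log2 fold change -0.35 ± 0.14 (SE), edgeR adjusted p = 0.0775 for VPA, and log2 fold change -0.44 ± 0.14 (SE), edgeR adjusted p = 0.0548 for VPA+Rapamycin). Both passed it without vehicle replicate 1 (-0.46 and -0.55), without a filter on low counts (-0.33 and -0.43) and with all 9 libraries in a single fit (-0.35 and -0.44). The VPA+Rapamycin difference passed with DESeq2 too (-0.44), and adjusted p ran from 0.00862 to 0.25 and from 0.0103 to 0.197 over the alternatives. Of the remaining hypoxia response genes (BNIP3, BNIP3L, ANKRD37, P4HA1 and P4HA2), none was called. The collagen prolyl hydroxylase P4HA1 came closest, with VPA+Rapamycin libraries at 3413, 6160 and 5260 normalized counts against 4284, 3119 and 3060 with VPA (log2 fold change 0.51 ± 0.15 (SE), edgeR adjusted p = 0.0536).

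Since most of the genes were high or low in the same libraries, levels per kb of paralogs were also divided within each library, in 12 pairs that were set after the values had been seen and so carry no test. In 7 of the 12 pairs the VPA libraries did not overlap the vehicle libraries. Among single genes, VPA libraries were all above vehicle for 24.9% of all genes and all below for 22.6%. No such share was computed for ratios. PFKP and PFKM, ENO1 and ENO2, and EGLN1 and EGLN3 were already called in opposite directions with VPA, so separation of their ratios adds little. PFKP to PFKM stood at 0.947, 0.919 and 0.941 in the vehicle libraries, 2.39, 1.85 and 2 with VPA and 1.34, 1.79 and 1.52 with VPA+Rapamycin. The vehicle ratios barely differed, and every VPA+Rapamycin ratio fell between the vehicle and the VPA ratios. ENO1 to ENO2 stood at 4.04, 4.4 and 3.35 in the vehicle libraries, 9.05, 8.9 and 8.33 with VPA and 6.66, 7.44 and 6.46 with VPA+Rapamycin, in the same order of groups. EGLN1 to EGLN3 stood at 12.4, 21.7 and 13.3 in the vehicle libraries, 4.77, 6.39 and 6.79 with VPA and 8.79, 7.82 and 6.82 with VPA+Rapamycin, here with vehicle on top and no overlap between any 2 groups. SLC2A1 to SLC2A3 stood at 3.97, 3.85 and 3.93 in the vehicle libraries, 5.2, 5.09 and 5.7 with VPA and 5.84, 5.54 and 4.45 with VPA+Rapamycin, with both treated groups above vehicle and overlapping each other. HK1 to HK2 behaved likewise, at 0.733, 0.692 and 0.585 in the vehicle libraries, 1.06, 1.12 and 1.34 with VPA and 1.53, 0.881 and 0.874 with VPA+Rapamycin. LDHA to LDHB, and PFKL to PFKM, were also higher in all VPA than in all vehicle libraries. In BNIP3 to BNIP3L, P4HA1 to P4HA2, PDK1 to PDK3, PFKFB3 to PFKFB4 and SLC16A1 to SLC16A3, the 3 groups overlapped. The libraries at the extremes for single genes, vehicle replicate 1 and replicate 3, were close to each other in PFKP to PFKM and in SLC2A1 to SLC2A3. They were far apart in LDHA to LDHB (9.83 and 5.53), SLC16A1 to SLC16A3 (4.53 and 11.1) and PFKFB3 to PFKFB4 (0.62 and 1.11). Ratios thus did not remove the differences between replicates in every pair.

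**Figure D4:**
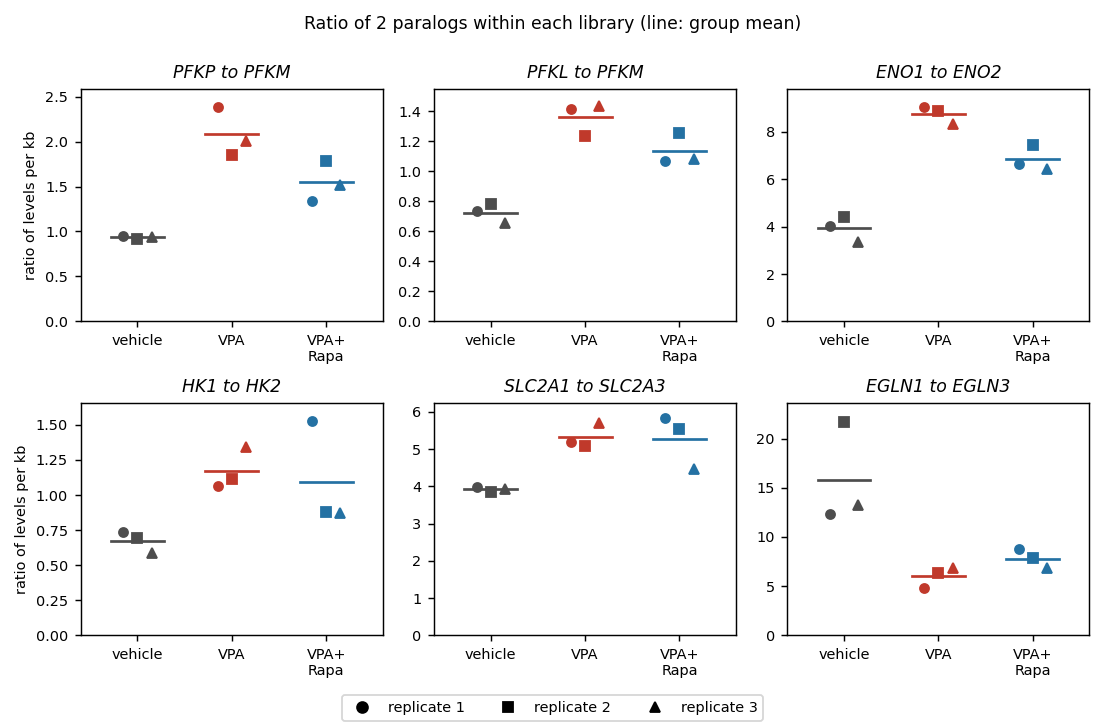
Ratio of the levels per kb of 2 paralogs (y axis, from 0) within each library, by group (x axis), with a line at the group mean. For PFKP to PFKM, ENO1 to ENO2 and EGLN1 to EGLN3, the VPA+Rapamycin libraries lie between the vehicle and the VPA libraries without overlap.

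A wider list of 68 further genes of glycolysis, pyruvate handling, the pentose phosphate pathway and the HIF response was read in the same fits, and 62 of them had enough counts to be tested. With VPA 9 rose and 10 fell, against the same background of 16.4% and 15.7%. The rises with the smallest adjusted p were those of TALDO1, transaldolase of the pentose phosphate pathway (log2 fold change 0.68 ± 0.10 (SE), edgeR adjusted p = 0.000647), AK4, a mitochondrial adenylate kinase (0.43, adjusted p = 0.00456), and CA12, a carbonic anhydrase (1.92, adjusted p = 0.0102, at 64, 15 and 14 normalized counts in vehicle and 113, 105 and 145 with VPA). The falls with the smallest adjusted p were those of WSB1, part of a ubiquitin ligase (log2 fold change -1.36 ± 0.13 (SE), edgeR adjusted p = 4.95e-05), VLDLR, a lipoprotein and reelin receptor (-1.15, adjusted p = 0.000125), and MXI1, an antagonist of MYC (-0.87, adjusted p = 0.00141). WSB1 stood at 18779, 22612 and 24243 normalized counts in the vehicle libraries, 10036, 7846 and 7838 with VPA and 7565, 12310 and 11288 with VPA+Rapamycin, with no overlap between vehicle and treated libraries. These 6 calls held in all 13 alternatives. The 9 that rose were 14 without vehicle replicate 3, 5 without vehicle replicate 2 or VPA replicate 3, 4 without VPA replicate 1 and 3 without VPA replicate 2. Among 8 genes for HIF partners and regulators, ARNT, the dimer partner of HIF1A, was the single one called (-0.45, adjusted p = 0.0112 by edgeR).

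With Rapamycin added to VPA, 1 of the 62 rose and 5 fell, where 3.01% and 3.73% of all genes did. The one that rose was PDK4, a pyruvate dehydrogenase kinase of fasting (log2 fold change 1.84 ± 0.46 (SE), edgeR adjusted p = 0.0222), from 11, 4 and 24 to 40, 42 and 60 normalized counts, against 27, 47 and 54 in vehicle. PLOD1, a collagen lysyl hydroxylase (-0.42, adjusted p = 0.0111), PGM1, phosphoglucomutase (-0.41, adjusted p = 0.0117), and AK4 (-0.39, adjusted p = 0.0161) had the smallest edgeR adjusted p among those that fell. The 5 that fell were 0 without VPA replicate 1, 1 without VPA replicate 2 or VPA+Rapamycin replicate 3, 3 without VPA replicate 3 or VPA+Rapamycin replicate 1 and 8 without VPA+Rapamycin replicate 2, and the 1 that rose ran from 0 (without VPA replicate 2 or VPA+Rapamycin replicate 3) through 2 (without VPA+Rapamycin replicate 2) to 5 (without VPA+Rapamycin replicate 1). All 4 calls were lost without VPA replicate 1 and in the single fit of 9 libraries. Those of PDK4 and PGM1 were also lost without VPA replicate 2 or VPA+Rapamycin replicate 3, that of PLOD1 without VPA+Rapamycin replicate 3, and that of AK4 without VPA replicate 2 or VPA+Rapamycin replicate 1. Over the alternatives adjusted p reached 0.118 for PDK4, 0.27 for PLOD1, 0.133 for PGM1 and 0.119 for AK4. Against vehicle, 4 of the 62 were higher with VPA+Rapamycin and 6 lower, where 9.81% and 9.22% of all genes were. The 4 were 11 without vehicle replicate 1, 2 without VPA+Rapamycin replicate 2 and 1 without vehicle replicate 2 or VPA+Rapamycin replicate 1 or 3, and the 6 were 3 without VPA+Rapamycin replicate 1. TALDO1 (0.59, adjusted p = 0.00397), PFKFB2 (0.86, adjusted p = 0.0145) and PDK2 (0.57, adjusted p = 0.0318) had the smallest adjusted p of the higher genes and WSB1 (-1.08, adjusted p = 0.00233), STC1, a secreted glycoprotein (-0.99, adjusted p = 0.00279), and VLDLR (-0.79, adjusted p = 0.00394) the lower ones, by edgeR. The calls of TALDO1, WSB1, STC1 and VLDLR held in all 13 alternatives. Those of PFKFB2 and PDK2 were lost without vehicle replicate 2 or VPA+Rapamycin replicate 1 or 3, and that of PDK2 also without VPA+Rapamycin replicate 2, with adjusted p up to 0.0585 and 0.154. CA9, a carbonic anhydrase often read as a hypoxia marker, had 0 to 12 counts in the 9 libraries and was not tested.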

How the data were processed

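RNA-seq libraries were analysed from 3 deposited tables of raw gene counts, 1 per comparison. Per the labels, poly-A RNA was prepared with an NEBNext Ultra kit. The submitters' processing notes name HISAT2 2.0.5 and featureCounts 1.5.0-p3, and gene IDs and lengths match GENCODE 29 on GRCh38. Strand and multi-overlap settings are not given in the sources used here. The 18 deposited FPKM columns, and the authors' normalized values, means, fold changes and p-values, were not used.

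Each comparison was fitted on its own table, 3 against 3 libraries, with edgeR 4.0.16 in R 4.3.3 (limma 3.58.1): TMM normalization, filterByExpr, quasi-likelihood F test, Benjamini-Hochberg adjustment over all genes tested, and a threshold of 0.05. SE was the log2 fold change over the square root of F, and intervals (95%) used the t quantile of the fit's degrees of freedom. The fit was tested on simulated counts. Levels are counts scaled by TMM over the 9 libraries, with per-kb values from the deposited gene length. With 3 against 3 libraries an exact permutation test cannot go below p = 0.1, so none is given.

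The members and lists were chosen with earlier results of these data known. Values in every library are given for members called in a comparison and for GAPDH, HIF1A, LDHA, LDHB, PKM and HK2. From the wider list, the 3 called genes with the smallest adjusted p in each direction were named; others named were chosen after their values were seen. Promoters were shown for up to 4 called hypoxia response genes or transporters with the smallest adjusted p and an entry. Alternatives were DESeq2 1.42.0, upper-quartile and RLE normalization, no filter, a minimum of 10 counts per library, a single fit of the 9 libraries, a replicate block and leaving out each library. The red blood cell markers HBA1, HBA2, HBB, HBG1 and HBG2 were looked up by name and had no entry in the deposited counts.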

Additional observations from a re-analysis of the deposited data

How the results depend on the processing

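Of the values of single genes recomputed under the alternatives, 194 kept direction and side of the threshold for VPA against vehicle, 23 lost a call and 4 gained one. For VPA+Rapamycin against VPA these were 90, 17 and 5, with 5 turned in sign, and against vehicle 128, 15 and 7, with 6 turned. Counts are of the 35 genes unless the wider list is named. For VPA against vehicle, the 5 that rose became 9 without a filter on low counts and 8 with a replicate block, and ran from 0 to 11 when 1 library was left out. The 8 that fell ran from 5 to 10 in the same way, and the 9 of the wider list that rose from 3 to 14. For VPA+Rapamycin against VPA, the 0 that rose became 1 without a filter, 1 with at least 10 counts in every library and 1 with a replicate block, and 0 to 1 with 1 library left out. The 4 that fell became 14 without a filter, 0 in the single fit of 9 libraries and 10 with a replicate block, and 1 to 16 with 1 library left out. The 1 of the wider list that rose became 2 with DESeq2, 3 without a filter, 0 with at least 10 counts in every library, 0 in the single fit and 2 with a replicate block (0 to 5 with 1 library left out), and the 5 that fell became 10 without a filter and 0 in the single fit (0 to 8). For VPA+Rapamycin against vehicle, the 0 that were higher ran from 0 to 1 with 1 library left out. The 6 that were lower became 11 without a filter and 11 with a replicate block (1 to 8). In the wider list the 4 higher became 8 with a replicate block (1 to 11), and the 6 lower became 10 without a filter, 10 in the single fit and 10 with a replicate block (3 to 9). The unfiltered and single fits differ in the genes and libraries that set the spread. The cause of the other shifts was not tested.

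Signs turned only for estimates near 0. With 1 library left out, HK2 ran from -0.29 to 0.26 and LDHB from -0.0919 to 0.0837 for VPA+Rapamycin against VPA, and against vehicle GAPDH ran from -0.20 to 0.0223, PKM from -0.12 to 0.20 and LDHA from -0.14 to 0.10. LDHA also turned under upper-quartile normalization (0.00713). Same-numbered libraries deviated from their group means with correlations of -0.0572 to 0.147 across genes, not all above 0.1, so the numbers were not treated as pairs. Whether the label prefix they share marks a clone, which would pair them, is not given in the sources used here. If it does, the main fits ignored a pairing. With the replicate block, HK2 passed the test for VPA+Rapamycin against vehicle (-0.58, edgeR adjusted p = 0.0305). PDK4 could not be fitted for VPA+Rapamycin against VPA with the minimum of 10 counts, and depth limited PDK4 and CA9 most, since a few counts per library set their values.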
